A study of Mus musculus with 4 samples.

Results

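The 10 genes described here, Cd83, Irf8, Itgax, Flt3, Xcr1, Clec9a, Batf3, Zbtb46, Ccr7 and Cd209a, mark the identity and the maturation of dendritic cells, and were chosen by name from 17574 genes measured in SCC7 tumours. SCC7 is a mouse squamous carcinoma line used as a model of head and neck cancer, and its cells had been injected under the skin of wild-type C3H/HeN mice. The anti-CD71 group (2 tumours) came from mice given an antibody against CD71, the transferrin receptor, on days 6 and 9, and the control group (2 tumours) is labelled only as control, with the agent those mice received not given in the sources used here. All tumours were taken on day 10, and RNA of whole tumour was sequenced, so tumour cells, stroma and immune cells contribute to each value. The comparison asks which tumour transcripts differ after the antibody.

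Dendritic cells take up antigen and present it to T cells. Precursors that carry the receptor Flt3 mature into conventional dendritic cells, whose lineage is marked by the transcription factor Zbtb46 and the integrin Itgax (CD11c), and the factors Irf8 and Batf3 direct the subset that presents engulfed antigen to CD8 T cells, marked on its surface by Xcr1 and Clec9a. Cd209a (DC-SIGN in the mouse) is found on dendritic cells related to monocytes. When a dendritic cell matures it raises Cd83, which stabilises MHC class II at the surface, and the chemokine receptor Ccr7, which guides it to the draining lymph node. Several of these genes are also used elsewhere: Irf8 and Itgax by macrophages, and Cd83 and Irf8 by B cells.

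Levels are TPM, an abundance per transcript length scaled to a fixed total per library, so that levels of different genes can be set side by side. The 3 complete libraries each listed 59881 transcripts, while the table of anti-CD71 replicate 1 as used here held 13586 of them, 22.69%. A transcript beyond that point is missing and not 0. Only Cd83 and Cd209a had at least 90% of their TPM in transcripts that all 4 libraries list, so 2 of the 10 genes could be compared over 4 libraries. For the other 8 the treated group is 1 tumour, anti-CD71 replicate 2, set against both controls. The number of reads behind a TPM value is unknown, so no counting interval is given. All 10 genes reached 1 TPM in at least 2 of the 3 complete libraries, the filter used for testing.

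Promoters are shown for genes that passed the test below, where one was available, which leaves out Cd83. Irf8, the gene shown, has 2 annotated starts that differed in use. The sequences below run from 250 bases before to 50 bases after each start, from RefSeq on GRCm38.p6, plus strand, and the capitals mark matches to TTCNNNGAA, the letters of the element bound by STAT factors after interferon gamma, and to TATAAA, the TATA box.
Irf8 first start, chr8:120736108-120736407: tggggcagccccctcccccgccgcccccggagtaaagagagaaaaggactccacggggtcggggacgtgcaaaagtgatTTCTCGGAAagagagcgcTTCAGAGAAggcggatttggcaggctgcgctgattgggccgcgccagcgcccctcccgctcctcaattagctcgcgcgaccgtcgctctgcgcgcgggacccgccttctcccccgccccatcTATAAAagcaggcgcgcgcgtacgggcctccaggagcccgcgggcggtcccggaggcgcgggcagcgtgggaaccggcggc
Irf8 second start, chr8:120738389-120738688: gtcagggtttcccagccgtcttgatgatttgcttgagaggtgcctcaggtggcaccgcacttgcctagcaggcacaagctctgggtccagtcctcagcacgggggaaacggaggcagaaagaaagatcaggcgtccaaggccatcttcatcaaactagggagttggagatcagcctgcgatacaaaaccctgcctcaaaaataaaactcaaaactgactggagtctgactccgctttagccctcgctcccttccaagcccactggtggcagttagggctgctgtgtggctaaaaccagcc

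The starts lie 2281 bases apart in GENCODE M21. The transcript of the first start, NM_008320, stood at 31.1 TPM in anti-CD71 replicate 2, against 50.96 and 58.91 TPM in the controls. That of the second start, NM_001301811, was listed at 0 in anti-CD71 replicate 2 and at 0 and 0.09 TPM in the controls, so nearly all Irf8 signal was assigned to the first. The first window is 70% G or C, where the median promoter has 52.7%, and it holds 2 matches to TTCNNNGAA, beginning 171 and 153 bases before the start, and a TATAAA that begins 31 bases before it. The second window holds neither. Of 32851 promoters of this length 8.3% hold TTCNNNGAA, which reads the same on both strands, and 13.6% hold TATAAA on either strand; both motifs were added after the Irf8 sequence had been read. Batf3 also holds TTCNNNGAA, and Xcr1, Clec9a and Cd209a hold TATAAA on the reverse strand. Of the other motifs, TGANTCA (AP-1, in 7.81% of promoters) occurs in the Itgax and Zbtb46 windows, beginning 56 and 61 bases before the start. The Zbtb46 window, at 181424339 to 181424638, belongs to a start inside the span of the gene. GGAANNGAAA (a joint ETS and IRF element, 2.72%) occurs in the window of Cd209a. GAAANNGAAA (IRF, 3.44%) and GGGNNTTTCC (NF-kB, 1.63%) occur in none of the 8 members with a promoter available. No promoter of Cd83 or Ccr7 was available, so theirs were not searched. These are matches of letters on both strands and do not show that a factor bound.

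Cd83 and Irf8 were lower in anti-CD71 replicate 2 and passed the test, Itgax was lower by a similar amount as Irf8 without passing, and the lineage factors Batf3 and Zbtb46 were at nearly the level of the controls. The markers of the cross-presenting subset, Xcr1 and Clec9a, and the homing receptor Ccr7 were below both controls but did not pass. Flt3 lay between the controls and Cd209a above both. By limma, 2 of the 10 genes were called lower and 0 higher at an adjusted p under 0.05 (3 at an unadjusted p under 0.05), where 2.86% of all 11982 tested genes were called, 2.39% lower and 0.476% higher. Anti-CD71 replicate 2 was below both controls for 7 of the 10 genes and above both for 1, where 42.5% of all tested genes were below both and 39.5% above both. The median log2 change of the 10 genes was -0.47, and that of all tested genes was -0.01.

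**Figure D1:**
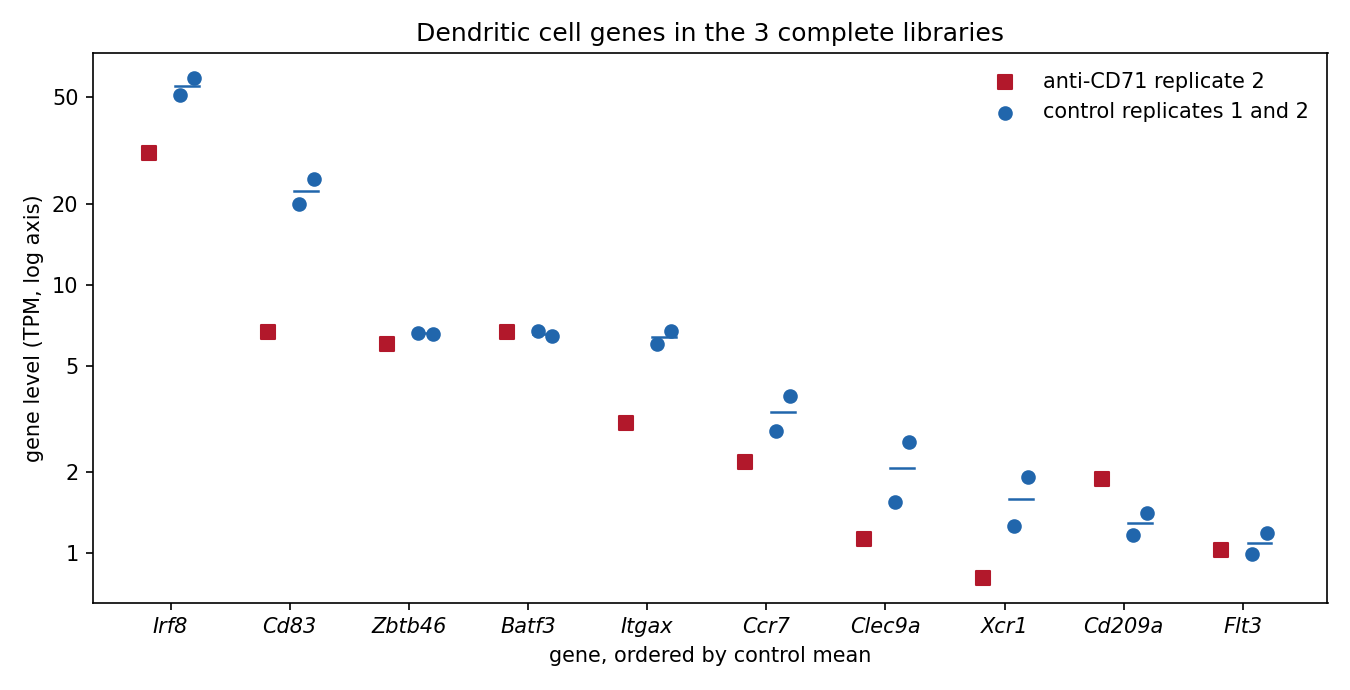
Level of each gene in TPM on a log axis, in anti-CD71 replicate 2 (square) and in both controls (circles, with a line at their mean). Cd83 stands apart from its controls at 6.67 TPM, against 19.92 and 24.81 TPM, while Batf3 and Zbtb46 sit beside theirs.

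Irf8 had the highest level in the controls and Flt3 the lowest. In the controls Irf8 averaged 54.98 ± 5.69 TPM and Cd83 22.36 ± 3.46 TPM (SD, n = 2). Next came Zbtb46, Batf3 and Itgax, whose control ranges overlap, then Ccr7 at 3.35 ± 0.7 TPM (SD, n = 2). Clec9a, Xcr1, Cd209a and Flt3 followed, each overlapping its neighbour in the controls. In anti-CD71 replicate 2 the order differed: Cd83 had come to the level of Batf3 and Zbtb46, and Cd209a was above Clec9a and Xcr1.

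Among the genes of maturation, Cd83 had the largest change of the 10. It lies on chromosome 13 from 43785112 to 43803133. Its 2 transcripts together stood at 6.67 TPM in anti-CD71 replicate 2, against 19.92 and 24.81 TPM in the controls. The level in the treated tumour was 70.2% below the control mean, and the log2 change was -1.60 (SE 0.15, limma adjusted p = 0.0249). The main transcript, NM_009856, carries 93.15% of the gene's TPM and is listed in all 4 libraries. It stood at 9.5 and 6.09 TPM in anti-CD71 replicates 1 and 2, against 18.47 and 23.32 TPM in control replicates 1 and 2. Both anti-CD71 tumours were thus below both controls, as were 31.1% of the 1563 genes tested over 4 libraries, while 28.3% were above both. The means were 7.8 ± 2.41 TPM in anti-CD71 tumours and 20.9 ± 3.43 TPM in controls (SD, n = 2 each), and Cd83 fell (log2 change -1.33, SE 0.21, limma adjusted p = 0.0388), where 4.29% of tested genes were called, 3.45% lower and 0.832% higher.

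The call of Cd83 over 4 libraries, like most calls of all genes, was lost without control replicate 1 (log2 change -1.50) or without control replicate 2 (-1.17). It held without anti-CD71 replicate 1 and without anti-CD71 replicate 2 (adjusted p = 0.0139 and 0.0428). With no filter on low values, with a filter of 1 TPM in 1 library or without the trend in the spread it did not pass in either comparison. Over 4 libraries it also did not pass with replicate number as a block (limma adjusted p = 0.104) or counting any listed transcript (0.117). The minor Cd83 transcript, NM_001289915, stood at 0.58 TPM in anti-CD71 replicate 2, against 1.45 and 1.49 TPM in the controls. Both transcripts were thus lower in that tumour.

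**Figure D2:**
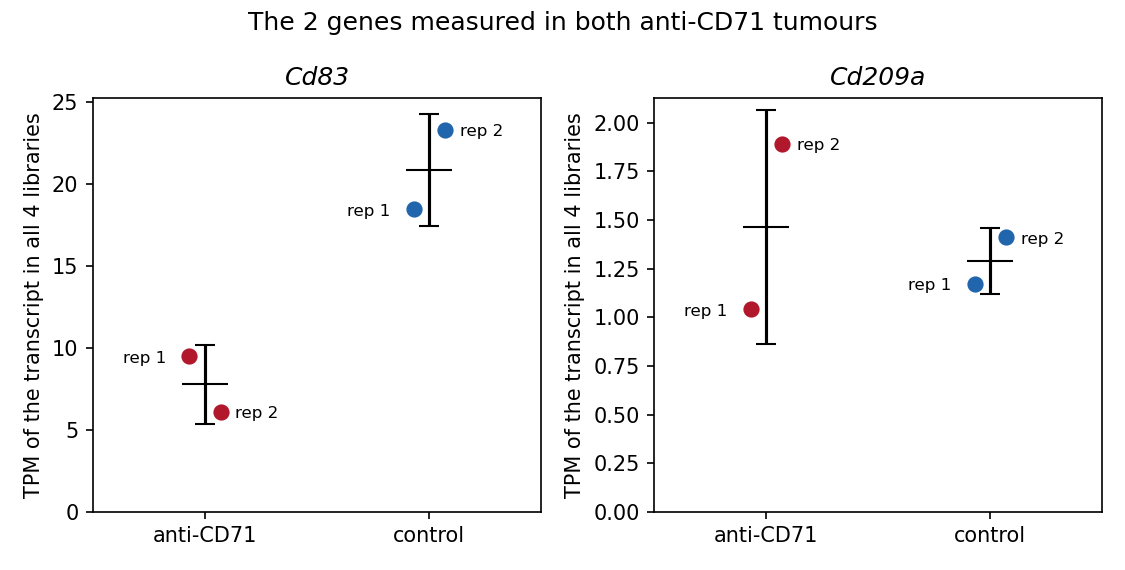
TPM of the transcripts that all 4 libraries list, for Cd83 and Cd209a, with each replicate as a point and the mean ± SD (n = 2 each) in black. The Cd83 points of anti-CD71 tumours, 9.5 and 6.09 TPM, lie below both controls, while those of Cd209a, 1.04 and 1.89 TPM, lie on either side of the controls.

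Ccr7, on chromosome 11 from 99144199 to 99155077, stood at 2.19 TPM in anti-CD71 replicate 2, against 2.85 and 3.84 TPM in the controls. It did not pass (log2 change -0.44, 95% interval -0.97 to 0.10, limma adjusted p = 0.271). The treated tumour was below both controls, and closer to the lower control than the controls were to each other.

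Of the transcription factors among the 10 genes, Irf8 passed the test and Batf3 and Zbtb46 did not. Irf8, on chromosome 8 from 120736358 to 120756694, stood at 31.1 TPM in anti-CD71 replicate 2, against 50.96 and 59 TPM in the controls, which is 43.4% below the control mean (log2 change -0.80, SE 0.12, limma adjusted p = 0.0444). This call was lost with no filter on low values (adjusted p = 0.225) and without the trend (0.120), and the range over its alternatives was 0.0240 to 0.963. Batf3, the partner of Irf8 in the cross-presenting subset, on chromosome 1 from 191098414 to 191108943, stood at 6.66 TPM in anti-CD71 replicate 2, against 6.7 and 6.45 TPM in the controls. Its log2 change was 0.02 with a 95% interval of -0.30 to 0.34 (limma adjusted p = 0.950). Zbtb46, which marks the conventional lineage and is also expressed by endothelial cells, lies on chromosome 2 from 181371009 to 181493262. It stood at 6 TPM in anti-CD71 replicate 2, against 6.62 and 6.56 TPM in the controls (log2 change -0.12, 95% interval -0.44 to 0.20, limma adjusted p = 0.599). The transcripts NM_028125 (2.36 TPM in anti-CD71 replicate 2, against 2.4 and 2.35 TPM in the controls) and XM_006500712 (3.37 TPM, against 3.39 and 3.91 TPM) made up most of it. Neither Batf3 nor Zbtb46 was shown to differ, which does not show that they were equal.

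**Figure D3:**
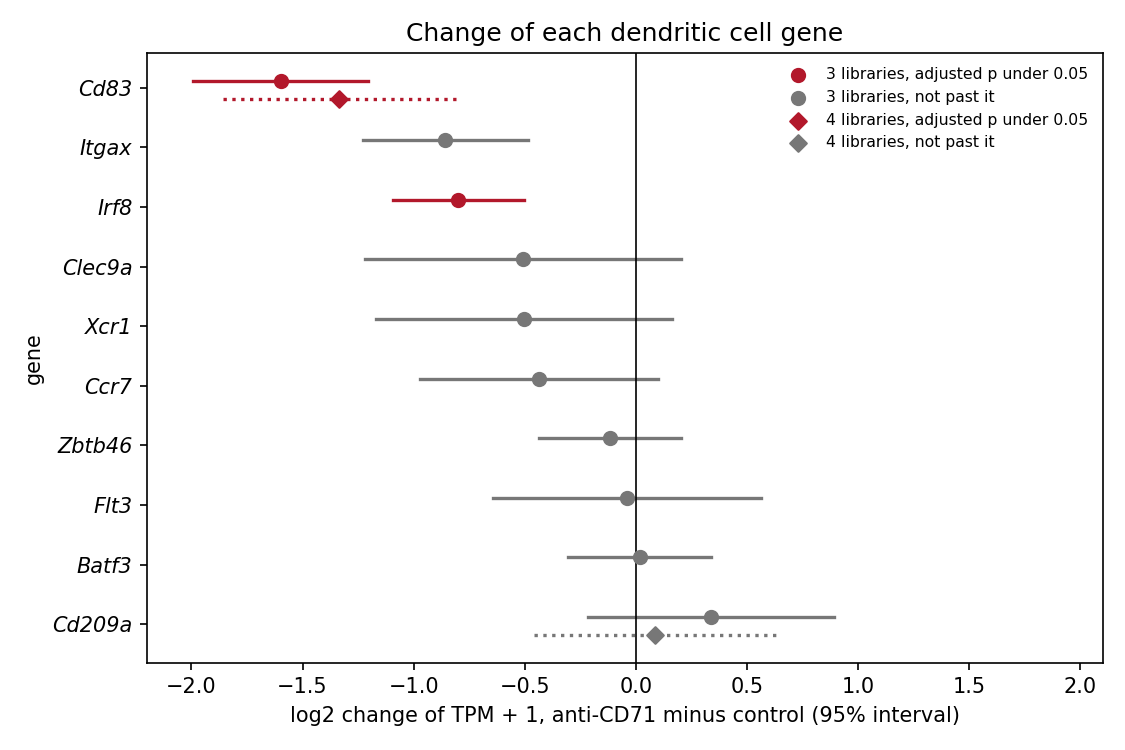
Log2 change of TPM + 1 for each of the 10 genes, anti-CD71 minus control, with 95% intervals from limma, over 3 libraries (circles) and, for Cd83 and Cd209a, over 4 (diamonds). Cd83 is at -1.60 and -1.33, Irf8 at -0.80, and the intervals of 7 genes include 0.

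The surface markers of dendritic cells did not pass the test, with Itgax closest. Itgax, on chromosome 7 from 128129526 to 128150657, stood at 3.06 TPM in anti-CD71 replicate 2, against 6.03 and 6.7 TPM in the controls (log2 change -0.86, 95% interval -1.23 to -0.49, limma adjusted p = 0.0545). With libraries scaled to the median gene it was called lower, and under no other alternative that allows a test. The log2 change of Itgax was -0.19 with libraries scaled to genes of leukocytes in general. Of its 3 transcripts NM_021334 held nearly all of the signal, at 2.94 TPM in anti-CD71 replicate 2, against 5.91 and 6.7 TPM in the controls, and the only transcript that anti-CD71 replicate 1 lists was at 0 in all 4 libraries.

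Xcr1, the receptor for the chemokine Xcl1, on chromosome 9 from 123852315 to 123862029, stood at 0.81 TPM in anti-CD71 replicate 2, against 1.26 and 1.92 TPM in the controls (log2 change -0.51, 95% interval -1.17 to 0.16, limma adjusted p = 0.296). Clec9a, which binds actin filaments exposed by dead cells, on chromosome 6 from 129408862 to 129424764, stood at 1.13 TPM in anti-CD71 replicate 2, against 1.55 and 2.6 TPM in the controls (log2 change -0.51, 95% interval -1.22 to 0.20, limma adjusted p = 0.320). For both genes the treated tumour was below both controls, and the interval includes 0. The signal of Clec9a was spread over 4 transcripts, of which NM_001205363 stood at 1.01 TPM in anti-CD71 replicate 2, against 0.75 and 1.41 TPM in the controls, and NM_001205365 was listed at 0 in anti-CD71 replicate 2 and stood at 0.57 and 0.91 TPM in the controls. How the unknown program divided reads among such overlapping transcripts is not given in the sources used here.

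Flt3, on chromosome 5 from 147330741 to 147400489, stood at 1.03 TPM in anti-CD71 replicate 2, between the controls at 0.99 and 1.19 TPM (log2 change -0.04, 95% interval -0.64 to 0.56, limma adjusted p = 0.932). Its transcript NM_010229, which carries 65.73% of the gene's TPM, is listed in all 4 libraries. It stood at 0.55 and 0.42 TPM in anti-CD71 tumours, against 0.91 and 0.78 TPM in the controls, without overlap. Of the 1563 genes tested over 4 libraries, 31.1% were likewise below both controls and 28.3% were above both. In anti-CD71 replicate 2 another transcript, XM_030254130, stood at 0.54 TPM, against 0.08 and 0.41 TPM in the controls, and the sums over all Flt3 transcripts overlapped. These values are below the filter of 1 TPM and were not tested.

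Cd209a, on chromosome 8 from 3743395 to 3748984, was the only one of the 10 genes above both controls in anti-CD71 replicate 2. Its single transcript, listed in all 4 libraries, stood at 1.04 and 1.89 TPM in anti-CD71 tumours, against 1.17 and 1.41 TPM in the controls. One anti-CD71 tumour was thus below both controls and the other above both (log2 change over 4 libraries 0.09, 95% interval -0.46 to 0.63, limma adjusted p = 0.827). Cd209a belongs to a family of similar genes whose reads may be shared, and of these Cd209b, Cd209d and Cd209e stood at 0.23, 0.72 and 0.27 TPM in anti-CD71 replicate 2 and between 0 and 1.62 TPM in the controls.

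In bulk tumour RNA, fewer cells of a type and less RNA per cell cannot be told apart. General leukocyte genes moved with Cd83 and Irf8: of 13 genes expressed by leukocytes of all kinds, 11 were called lower over 3 libraries and 0 higher, with a median log2 change of -0.79. Ptprc (CD45) stood at 29.4 TPM in anti-CD71 replicate 2, against 53.53 and 60.15 TPM in the controls (log2 change -0.93, limma adjusted p = 0.0290). Cd52 (-1.31), Laptm5 (-1.03) and Was (-0.94), which organises leukocyte actin, fell too. The summed TPM of the 13 genes was 1092.06 in anti-CD71 replicate 2, against 1907.67 and 2192.99 in the controls.

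Set against that sum, Irf8 and Itgax were near the controls and Cd83 was still below them. Per 1000 TPM of pan-leukocyte genes, Cd83 stood at 6.11 in anti-CD71 replicate 2, against 10.44 and 11.31 in the controls. Irf8 stood at 28.5 in anti-CD71 replicate 2, against 26.7 and 26.9 in the controls, and so slightly above both. Itgax, at 2.8 against 3.16 and 3.06, was slightly below both. Xcr1 and Clec9a lay between their controls on this scale, and Flt3, Batf3, Zbtb46, Ccr7 and Cd209a above both. When all genes were scaled to the geometric mean of the pan-leukocyte genes, an alternative added after the data had been seen, Cd83 was the only one of the 10 called lower (log2 change -0.84), where 1.11% of all tested genes were called lower. Batf3, Zbtb46 and Cd209a were called higher on that scale, as were 84.3% of all tested genes, so their calls are not set apart from the background.

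**Figure D4:**
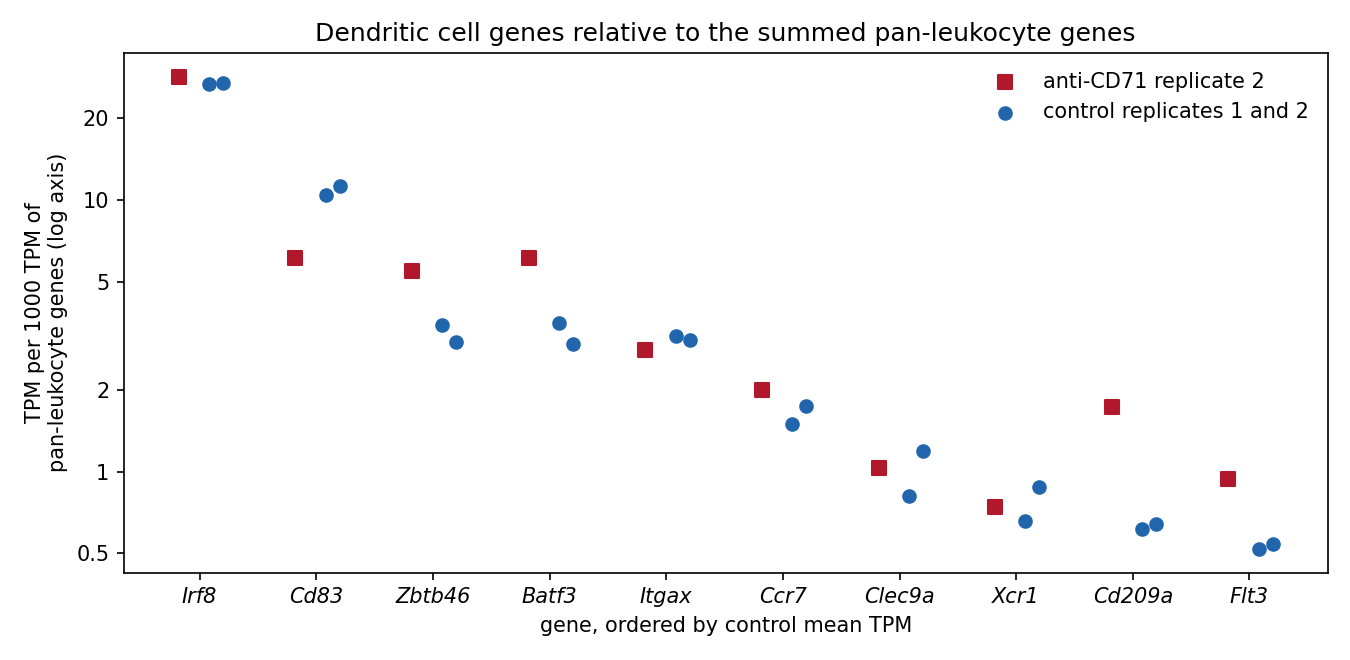
TPM of each gene per 1000 TPM of the 13 pan-leukocyte genes, on a log axis, in anti-CD71 replicate 2 (square) and both controls (circles). Cd83 lies below its controls at 6.11, against 10.44 and 11.31, while Irf8 and Itgax lie close to theirs.

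Markers of other cells moved as well. Of 18 macrophage and monocyte markers 9 were called lower over 3 libraries and 1 higher, and their summed TPM was 4082.28 in anti-CD71 replicate 2, against 7536.46 and 9611.49 in the controls, with none at 0. Csf1r stood at 69.38 and 66.83 TPM in anti-CD71 tumours, against 125.77 and 156.93 TPM in the controls, and fell over 4 libraries (log2 change -1.03, limma adjusted p = 0.0320). Cx3cr1 (-2.14), C1qb (-1.37) and C1qc (-1.31) fell over 3 libraries, and Cd163, a scavenger receptor, rose (1.26). Of 11 tested T and NK cell genes 7 were called lower, with Gzma (-2.28), Prf1 (-2.12), Nkg7 (-1.90) and Gzmb (-1.71) among them, and the summed level of the list was 71.03 TPM in anti-CD71 replicate 2, against 270.41 and 261.63 TPM in the controls. Over 4 libraries 0 of the 3 tested genes of that list passed in limma (2 at an unadjusted p under 0.05). Gzmb, the gene of a cytotoxic protease, stood at 79.54 and 27.62 TPM in the anti-CD71 tumours, against 100.74 and 84.83 TPM in the controls (log2 change -0.96, limma adjusted p = 0.241), so the treated tumours differed widely from each other.

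The epidermal list summed to 127.28 TPM in anti-CD71 replicate 2, against 2.14 and 3.46 TPM in the controls, where Krt1, Krt5, Lor and Krtdap were listed at 0. In anti-CD71 replicate 1 Dsg1a was listed at 0, and Dmkn, over listed transcripts, stood at 1.49 TPM there and 14.93 TPM in anti-CD71 replicate 2, against 0.36 and 1.42 TPM in the controls (limma adjusted p over 4 libraries 0.238). The listed transcripts of Sbsn, 58.82% of its TPM, stood at 0 in anti-CD71 replicate 1 and at 5.55 TPM in replicate 2. They stood at 0.74 and 0.61 TPM in the controls. Over 3 libraries Dmkn (log2 change 3.27) and Sbsn (1.71), the 2 tested genes of that list, were called higher. The neutrophil list summed to 509.45 TPM in anti-CD71 replicate 2, against 17.16 and 11.37 TPM in the controls, with S100a8 (log2 change 6.09) and S100a9 (5.88) called higher among 3 tested, and Csf3r (0.40) not called. S100a8 (265.49 TPM) and S100a9 (212.99 TPM) made up most of the neutrophil sum in anti-CD71 replicate 2. The listed transcripts of S100a9, 85.67% of its TPM, stood at 142.39 and 183.5 TPM in anti-CD71 tumours, against 3.67 and 0 TPM in the controls. The B cell marker Ms4a1 was near 0, at 0.04 TPM in anti-CD71 replicate 2, against 0.04 and 0.15 TPM in the controls. Of the B and plasma cell list only Sdc1, which epithelium also expresses, was tested, and it did not pass (0.29). In anti-CD71 replicate 2 the Langerhans cell gene Cd207 had 0.33 TPM, and it was listed at 0 in both controls. The part of these lists in the values of the 10 genes was not tested.

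Other genes listed for dendritic cells were lower in part. Over 3 libraries, the median log2 change was -0.79 for the pan-leukocyte genes and -0.74 for the macrophage and monocyte markers. Which cells the listed genes came from was not tested. Of 12 tested genes of the cross-presenting subset 1 was called lower and 0 higher (median log2 change -0.22). That gene, Naaa, encodes a lysosomal amidase and is listed in all 4 libraries. Its listed transcripts stood at 37.97 and 38.42 TPM in anti-CD71 tumours, against 60.54 and 70.55 TPM in the controls (log2 change -0.76, limma adjusted p = 0.0339). Both anti-CD71 tumours were below both controls, as for 31.1% of the 1563 genes tested over 4 libraries, while 28.3% were above both. Naaa averaged 66.52 TPM in the controls, against 1.59 TPM for Xcr1 and 2.075 TPM for Clec9a of the same subset. Wdfy4, which that subset needs for cross-presentation, stood at 5.19 TPM in anti-CD71 replicate 2, against 8.13 and 9.69 TPM in the controls, and did not pass (log2 change -0.67, limma adjusted p = 0.0815). The adaptor gene Clnk was at -0.97 and did not pass either.

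Of 9 tested genes of the second conventional subset and of monocyte-derived dendritic cells 2 were called lower and 0 higher (median log2 change -0.62). Sirpa, a receptor for CD47 that macrophages also carry, stood at 83.06 TPM in anti-CD71 replicate 2, against 136.1 and 143.45 TPM in the controls (log2 change -0.74, limma adjusted p = 0.0288). Its listed transcripts, 68.92% of the gene's TPM, had 61.19 and 62.21 TPM in anti-CD71 tumours, against 91.24 and 96.47 TPM in the controls. Klf4, a transcription factor also used by monocytes and epithelium, fell (-0.68). The lectin genes Mgl2 (-1.15, limma adjusted p = 0.0980) and Clec4n (-0.77) did not pass.

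Of 19 tested genes of maturation and migration 2 were called lower and 0 higher, with a median log2 change of -0.23. Cd86, a costimulatory ligand for CD28 on T cells, stood at 7.24 TPM in anti-CD71 replicate 2, against 13.59 and 14.34 TPM in the controls (log2 change -0.86, limma adjusted p = 0.0348). Ccl17, a chemokine of dendritic cells that attracts Ccr4-bearing T cells, stood at 1.9 TPM in anti-CD71 replicate 2, against 5.13 and 4.73 TPM in the controls (log2 change -1.03, limma adjusted p = 0.0477). Icosl (-0.86) and Cacnb3 (-0.61) did not pass. Of 7 tested plasmacytoid dendritic cell genes 0 passed in limma, with 6 at an unadjusted p under 0.05 and a median log2 change of -0.33. Tlr9 was at -1.02 and Cox6a2 at -0.91, and the defining marker Siglech stood at 0.74 TPM in anti-CD71 replicate 2, against 0.27 and 0.54 TPM in the controls.

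Ligands that act on the members were also measured. Xcl1, the ligand of Xcr1, which NK and T cells release, stood at 3.77 TPM in anti-CD71 replicate 2, against 10.71 and 19.76 TPM in the controls (log2 change -1.71, limma adjusted p = 0.0710). Flt3l, the ligand of Flt3, stood at 9.94 TPM, against 14.96 and 14.42 TPM (-0.52, limma adjusted p = 0.0721). Both were below the controls and neither passed. Of 5 tested ligands and receptors 2 were called lower and 0 higher (median log2 change -0.71): Ccl5 (-0.82), a chemokine of NK and T cells, and Csf2rb (-0.71), the shared receptor chain for GM-CSF. Of the Ccr7 ligands, Ccl19 had 0.13 TPM in anti-CD71 replicate 2 and was listed at 0 in both controls, and Ccl21a, which has near-identical copies that may share its reads, had 3.58 TPM in anti-CD71 replicate 2, against 0.77 and 0 TPM in the controls. Both were below the filter and were not tested.

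Of 18 tested transcription factors of dendritic cell development 4 were called lower and 0 higher (median log2 change -0.48). Runx3 (-1.08), Spi1 (-0.65), which encodes PU.1, Nfil3 (-0.64) and Irf5 (-0.59) were the 4. Nfil3 did not pass over 4 libraries, where its listed transcripts stood at 20.11 and 16.7 TPM in anti-CD71 tumours, against 25.44 and 26.82 TPM in the controls (log2 change -0.49, limma adjusted p = 0.0683). Among 10 MHC class II genes 1 was called lower and 0 higher (median log2 change -1.19). That was H2-DMb1 (-1.38), part of the complex that loads peptide. Cd74, the invariant chain, stood at 188.58 TPM in anti-CD71 replicate 2, against 478.63 and 849.6 TPM in the controls (-1.75, limma adjusted p = 0.0636), and H2-Aa was at -1.57. Neither passed, and the controls differed widely from each other for both. Of the stromal lists, 0 of 5 endothelial genes were called by limma (1 at an unadjusted p under 0.05; median log2 change -0.16, with Pecam1 at -0.36 and Emcn at -0.19), and 1 of 7 fibroblast genes was lower (median log2 change -0.44), Pdgfra at -0.64, while Pdgfrb (-1.21) and Col1a1 (-0.50) did not pass.

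**Figure D5:**
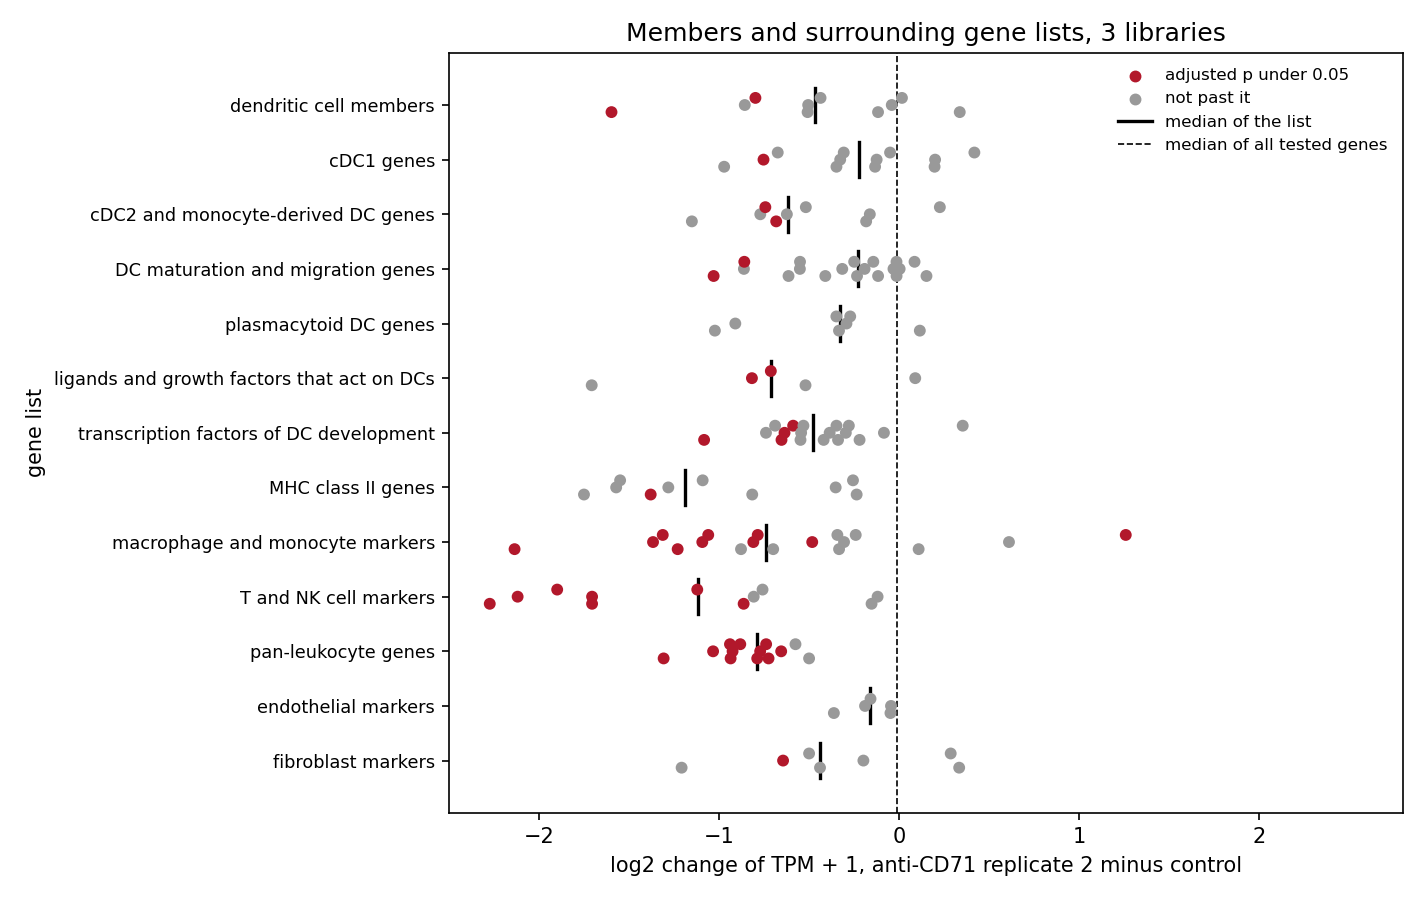
Log2 change of TPM + 1 of each tested gene, anti-CD71 replicate 2 minus control, for the 10 members and the lists with at least 5 tested genes, with the median of each list as a bar and that of all tested genes as a dashed line at -0.01 (DC, dendritic cell; cDC1, the cross-presenting subset; cDC2, the second conventional subset). The bars of the members (-0.47) and of the pan-leukocyte genes (-0.79) lie left of the dashed line, as do those of the other lists shown.

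The genes whose values across libraries were most like those of 3 members are given as a description, since so few libraries allow many genes to share a pattern. Nearest to Cd83 over 4 libraries, by the distance between centred log2 values among 1308 genes whose mean reached 5 TPM, were Ncr1 (0.17), Timd4 (0.32), Tmem119 (0.35), Bcl2a1d (0.38) and Klrg1 (0.40). Ncr1, a receptor of NK cells, stood at 5.1 and 2.52 TPM in anti-CD71 tumours, against 9.53 and 11.54 TPM in the controls. Nearest to Irf8 over the 3 complete libraries, among 10070 genes, were Sqor, Snx20, Fcer1g, Themis2 and Plcg2, at distances between 0.0039 and 0.024. Nearest to Itgax were Trem2, Fcgr4, Cyth4, Sla and Ccl5, at distances between 0.0092 and 0.032. Of these, Trem2, a receptor of macrophages, stood at 62.56 TPM in anti-CD71 replicate 2, against 109.08 and 120.5 TPM in the controls.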

How the data were processed

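Bulk RNA of 2 anti-CD71 and 2 control tumours was analysed. The authors deposited TPM values per RefSeq transcript, with RNA extraction and libraries made by BGI, per the labels' protocols, with GRCm38.p6 as the genome build named in the submitters' processing notes. Which aligner and TPM program they used, and the read depth, is not given in the sources used here. Symbols came from a RefSeq table of GRCm38.p6, which matched 58425 of 59881 transcripts, and TPM were summed per gene, including 1744 transcripts at second loci.

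limma 3.58.1 in R 4.3.3 was run on log2(TPM + 1) with an intensity trend, on genes with at least 1 TPM in 2 libraries, with Benjamini-Hochberg adjustment over all of them. Fold changes on this scale understate those of low genes. The comparison over 4 libraries used genes with at least 90% of their TPM in transcripts listed for all, summed over those (1563 tested); that over 3 libraries used anti-CD71 replicate 2 and both controls (11982 tested). There the spread of the single treated library was taken to equal that of the controls; in the genes tested over 4 libraries, log2 differences had an SD of 0.294 between anti-CD71 tumours and 0.222 between controls. Nothing says that the tumours came from separate animals, so p-values measure the spread between these samples. An exact two-sided permutation test cannot go below p = 0.333 in either comparison. The fit was tested on simulated data in which each gene had the same spread in both groups, so unequal spread was not tested.

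The members and the 15 further lists (with the members 210 genes, 206 of them found) were chosen with earlier results of these data known. Of each list the called genes and those with the largest change are named, at most 4, beside Csf1r, Cd74, Ptprc, Flt3l and Xcl1. Genes that failed the filter, such as Krt1, Ms4a1, Cd207, Siglech and Ccl19, were named outside this rule.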

Additional observations from a re-analysis of the deposited data

How the results depend on the processing

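The log2 change of Cd83 stayed below 0 under all 14 alternatives over 4 libraries (-1.62 to -0.75; adjusted p between 0.000221 and 0.344) and all 10 over 3 libraries (-1.75 to -0.84; adjusted p between 9.3e-05 and 0.207). By limma, 1 of the 2 members tested over 4 libraries was called, and 2 of 10 over 3. Over 4 libraries, all genes called numbered 67, against 1 with no filter on low values, 8 with a filter of 1 TPM in 1 library, 4 without the trend, 4 counting any listed transcript, and 1159 with pan-leukocyte scaling; leaving out a replicate gave 1 to 96, and median scaling split the calls into 19 higher and 38 lower, against 13 and 54. In the first 4 of these settings 0 of the 2 members tested were called (1 at an unadjusted p under 0.05 in each), and leaving out a replicate gave 0 to 1. No label says that same-numbered samples share more than a number, and the correlation of their deviations was -0.0055. With the replicate block 3 genes and 0 of the 2 members (1 at an unadjusted p under 0.05) were called. Over 3 libraries, all genes called numbered 343, against 0 with no filter (3401 at an unadjusted p under 0.05), 72 with a filter of 1 TPM in 1 library, 35 without the trend, 11 on single transcripts, 631 with median scaling and 10228 with pan-leukocyte scaling. Of the 10 genes, 0 were called with no filter, with a filter of 1 TPM in 1 library and on single transcripts (3 at an unadjusted p under 0.05 in each), and 0 without the trend (4 at that level), against 4 with pan-leukocyte scaling. Of the 4 with pan-leukocyte scaling, Cd83 was lower and Batf3, Zbtb46 and Cd209a were higher, as were most tested genes. The cause of the differences between settings was not tested. The lowest adjusted p of Cd83 in each comparison, and its weakest log2 changes (-0.75 and -0.84), came with pan-leukocyte scaling. Pan-leukocyte scaling, which rests on Cd53 and Was alone over 4 libraries, turned the log2 change of Irf8 to 0.011, Ccr7 to 0.17, Flt3 to 0.41 and Zbtb46 to 0.61 over 3 libraries; leaving out anti-CD71 replicate 2 turned that of Cd209a to -0.17 over 4, and leaving out each replicate gave it -0.17 to 0.34. Leaving out a control over 3 libraries leaves no residual degree of freedom, so those values carry no test. Because depth is unknown, the precision of Flt3, Xcr1, Clec9a and Cd209a, near 1 TPM, cannot be stated.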
